A study of Mus musculus with 8 samples.

Results

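The miR-17-92 cluster was examined in mouse microvascular smooth muscle cells that lacked the small GTPase Rap1a. The cluster was defined as every array feature named for the stems miR-17, miR-18a, miR-19a, miR-19b, miR-20a or miR-92a, whichever strand of the stem it read. This gave 11 mature forms, on 220 of the 13000 miRNA spots per array and 30 of the 1857 probes, out of 650 miRNAs in all. Of the 11 forms, 6 were detected well enough to be tested. For the other 5, no probe had most of its spots well above background on any array. Forms with an asterisk are the strand of the hairpin that is usually the less abundant one, called the passenger strand here. The other strand is called the guide.

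All cells, controls included, were Rap1a -/-, from male mice of the C57BL6 strain. In the Control group they were transduced with an empty shuttle vector, and in the RapCA group with a shuttle vector carrying RapCA, a construct that the labels do not describe further. Each group had 4 samples labelled as biological replicates, read on 1 array each with the dye Cy3. Cells were grown with 10% serum and met the virus overnight in medium free of serum. RNA was extracted after a recovery of 48 h, with serum at 0.5%. The ages of the mice, whether the cells of a group came from 1 or several mice, and whether the control virus carried any other insert are not given in the sources used here. If the samples of a group share an isolate, the p-values measure the spread between dishes, and the 4 arrays per group limit the precision.

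The miR-17-92 cluster is a set of hairpins cut from a single primary transcript, so its members are made together, while each mature miRNA can then accumulate or decay at its own rate. Each mature miRNA is loaded into an Argonaute protein and represses messenger RNAs that pair with its seed, the bases from position 2 to position 8. The cluster is known for its transcriptional activation by Myc and for its roles in cell proliferation and survival, and mammals carry a pair of related clusters, miR-106b-25 and miR-106a-363.

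The sequences of the cluster and of its tested relatives are given because the comparison by seed rests on them. They come from RefSeq on GRCm38.p6 and run 5′ to 3′, with the seed in capitals. In that annotation the 6 hairpins lie on the plus strand at chr14:115043671-115044506, within 836 bases, in the order Mir17, Mir18, Mir19a, Mir20a, Mir19b-1 and Mir92-1. RefSeq had an entry for 23 of the 24 cluster forms and relatives looked up. The tested guides are named mmu-miR-18a, mmu-miR-19a, mmu-miR-20a, mmu-miR-19b and mmu-miR-92a on the array, and the array names mmu-miR-17 and mmu-miR-17* correspond to the RefSeq names miR-17-5p and miR-17-3p. The species prefix is left out where the meaning is clear.
miR-17-5p: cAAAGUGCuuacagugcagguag
miR-17-3p: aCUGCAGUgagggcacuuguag
miR-18a-5p: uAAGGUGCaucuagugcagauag
miR-19a-3p: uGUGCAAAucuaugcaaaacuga
miR-20a-5p: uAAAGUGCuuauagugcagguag
miR-19b-3p: uGUGCAAAuccaugcaaaacuga
miR-92a-3p: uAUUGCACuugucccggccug
miR-20b-5p: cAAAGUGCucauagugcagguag
miR-93-5p: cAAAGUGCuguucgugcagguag
miR-106b-5p: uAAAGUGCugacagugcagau
miR-25-3p: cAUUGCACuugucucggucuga

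The guides thus fall into 4 seed families. The seed AAAGUGC is shared by miR-17, miR-20a and the relatives miR-20b, miR-93 and miR-106b. The seed of miR-18a is AAGGUGC, miR-19a and miR-19b share GUGCAAA, and miR-92a shares AUUGCAC with miR-25. Over the whole sequence, miR-19a and miR-19b differ at 1 of 23 positions, miR-17 and miR-20a at 2 of 23, and miR-20a and miR-20b at 2 of 23. How far the array probes separate such neighbours was not tested. The mature sequences of miR-19b and miR-92a are also encoded on the X chromosome, by Mir19b-2 and Mir92-2 of the miR-106a-363 cluster, so the loci of origin of these miRNAs cannot be told apart.

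All 6 tested members rose in RapCA cells, by between 0.76 and 1.96 on the log2 scale after scaling between arrays, with a median of 1.37. On every RapCA array each of the 6 lay above all 4 Control arrays. These counts stand against a background in which 26.2% of the 168 tested miRNAs were called raised and 50% lowered, or 76.2% in either direction (limma, Benjamini-Hochberg adjusted p under 0.05). Every RapCA array lay above every Control array for 21.4% of them, and below for 46.4%. The median over all 168 was -0.30, so the scaled values place most miRNAs below 0. Scaled values are log2 of the processed spot signal after division by each array's 75th percentile, taken over those 189 probes that every array detected. Low signals were set to a floor, which lies at 3.26 on this scale.

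**Figure D1:**
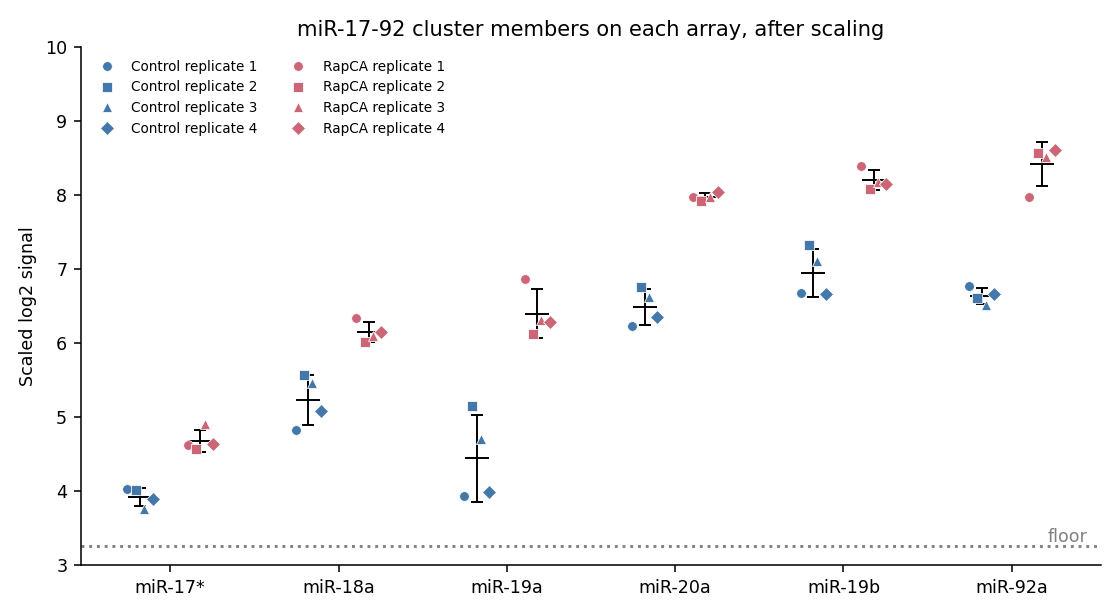
Scaled log2 signal (vertical axis) of the 6 tested cluster members on the 4 Control (blue) and 4 RapCA (red) arrays. Marker shapes give the replicate number, bars give the mean ± SD, and the dotted line is the floor at 3.26; for each member the RapCA points lie above the Control points.

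The signal of the whole array differed between the groups before scaling, which bears on every member. The total signal over all miRNAs was 64361, 73496, 81972 and 59506 on Control arrays 1 to 4 and 56618, 26374, 29218 and 28388 on RapCA arrays 1 to 4. The RapCA mean was 0.503 of the Control mean (two-sided exact permutation test, p = 0.0286, the smallest that 4 against 4 allows), whereas the spike-in controls had a ratio of 1.00 (p = 1). RapCA array 1 was nearly as bright as the Control arrays, and the other RapCA arrays were much dimmer. All 8 arrays lay on 1 slide and in 1 scan, with the Control arrays in slide row 1 and the RapCA arrays in slide row 2, so row and group cannot be told apart. Fewer cells of a type, less miRNA per cell and less labelled RNA on the array cannot be told apart either.

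Within this lower total, the cluster took a larger share. Its 30 probes held 1.27%, 1.56%, 1.43% and 1.15% of the total signal on Control arrays 1 to 4 and 4.37%, 3.62%, 3.67% and 3.92% on RapCA arrays 1 to 4. The means were 1.35% ± 0.18 (SD, n = 4) and 3.89% ± 0.34 (SD, n = 4), a ratio of 2.88, and the groups did not overlap. How many other miRNAs separate in share of total signal was not counted. In unscaled signal the cluster summed to 815, 1145, 1174 and 682 on the Control arrays and to 2473, 954, 1072 and 1112 on the RapCA arrays. Thus RapCA array 1 was far above all Control arrays, while RapCA arrays 2 to 4 lay within the Control range.

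The miR-17 stem gave a signal only from its passenger strand. The guide miR-17, named mmu-miR-17 on the array, which represses cell-cycle inhibitors such as Cdkn1a, had 0 of 158 usable spots well above background over the 8 arrays. The unscaled signals of its 2 probes ran from -3.25 to 3.03, below or near the arrays' own negative controls, whose medians were between 1.95 and 2.96. No fold change can be given for it, and the reading says nothing of whether the guide was absent from the cells.

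The passenger strand miR-17* had scaled log2 values of 4.03, 4.01, 3.77 and 3.89 on Control arrays 1 to 4 and of 4.62, 4.57, 4.90 and 4.64 on RapCA arrays 1 to 4. It was the smallest change in the cluster, 0.76 ± 0.11 (SE) on the log2 scale or 1.69-fold, with a limma adjusted p of 0.000104. The groups were apart with narrow spreads, and RapCA array 3 was the highest. The value rests on 1 of its 2 probes, which was detected on 4 Control and 3 RapCA arrays and whose values lay above the floor on every array. The other probe of miR-17*, near the floor and not used, gave a difference of 0.01. With all probes kept, the difference of miR-17* was 0.39.

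The second hairpin yields miR-18a, whose known targets include the matrix regulators Thbs1 and Ctgf. Its scaled log2 values were 4.82, 5.57, 5.46 and 5.09 on the Control arrays and 6.34, 6.02, 6.09 and 6.16 on the RapCA arrays. The difference was 0.92 ± 0.16 (SE), a 1.89-fold rise with a limma adjusted p of 0.000587. Control arrays 2 and 3 were higher than 1 and 4, RapCA array 1 was the highest, and the groups did not overlap. Its second probe, which missed the detection rule and was not used, gave a difference of 0.84. The passenger strand miR-18a* had 3 of 157 usable spots well above background and was not tested.

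The miR-19 family has 2 members in the cluster, both of which were tested. From the third hairpin, miR-19a had scaled log2 values of 3.93, 5.15, 4.71 and 3.99 on the Control arrays and 6.87, 6.12, 6.32 and 6.29 on the RapCA arrays. The mean change was 1.96 ± 0.28 (SE) or 3.88-fold (limma adjusted p = 0.000117), with the widest spread among Control arrays of the 6 members. It was above that of miR-92a in the main setting, but below it without Control array 1 (1.79 against 1.84), without RapCA array 1 (1.78 against 1.92) and with normexp at an offset of 50 (1.27 against 1.39). Control arrays 1 and 4 were about a log2 unit below Control array 2, and RapCA array 1 stood above the other RapCA arrays. Its 2 probes gave differences of 1.98 and 1.93.

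The fifth hairpin yields miR-19b, whose scaled log2 values were 6.68, 7.33, 7.12 and 6.67 on the Control arrays and 8.40, 8.09, 8.18 and 8.15 on the RapCA arrays. It rose by 1.25 ± 0.16 (SE), or 2.38-fold, with a limma adjusted p of 5.45e-05. As for miR-19a, Control arrays 2 and 3 were high and RapCA array 1 was the highest, and the groups did not overlap.

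The fourth hairpin yields miR-20a, which has the miR-17 seed and so pairs with the same kind of site. Its scaled log2 values were 6.24, 6.76, 6.63 and 6.36 on the Control arrays and 7.98, 7.92, 7.97 and 8.05 on the RapCA arrays. It rose by 1.49 ± 0.12 (SE), or 2.80-fold, with a limma adjusted p of 3.21e-06. The RapCA arrays lay close together, with an SD of 0.05 that was the smallest of any group among the 6 members, and above all Control arrays.

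The last hairpin yields miR-92a, known from endothelium for repressing the integrin gene Itga5. Its scaled log2 values were 6.78, 6.62, 6.52 and 6.66 on the Control arrays and 7.98, 8.57, 8.52 and 8.61 on the RapCA arrays. It rose by 1.78 ± 0.14 (SE), or 3.43-fold, with a limma adjusted p of 3.21e-06. The order of the arrays differed from that of the other guides, since RapCA array 1 was the lowest of its group and Control array 1 the highest of its own, and the groups did not overlap. The remaining passenger strands, miR-19a*, miR-20a* and miR-92a*, had no spot well above background on any array.

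Before scaling, miR-92a was the only one of the 6 whose groups did not overlap. Its unscaled signal was 234, 230, 256 and 189 on the Control arrays and 547, 305, 326 and 340 on the RapCA arrays. By contrast, miR-20a read 113, 176, 178 and 99.8 on the Control arrays and 365, 134, 152 and 157 on the RapCA arrays. For miR-19a the readings were 23.2, 59.5, 48.4 and 19.8 against 173, 39.9, 49.6 and 46.9. In both cases RapCA array 1 was the highest of all 8 arrays and the other RapCA arrays fell among the Controls. The same held for miR-18a and miR-19b except that RapCA array 2 of miR-18a, at 33.9, and RapCA array 3, at 39.2, lay just below the lowest Control array, at 39.4. For miR-17* RapCA arrays 2 and 4, at 12.5 and 13.9, lay below the lowest Control array, at 17.2.

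**Figure D2:**
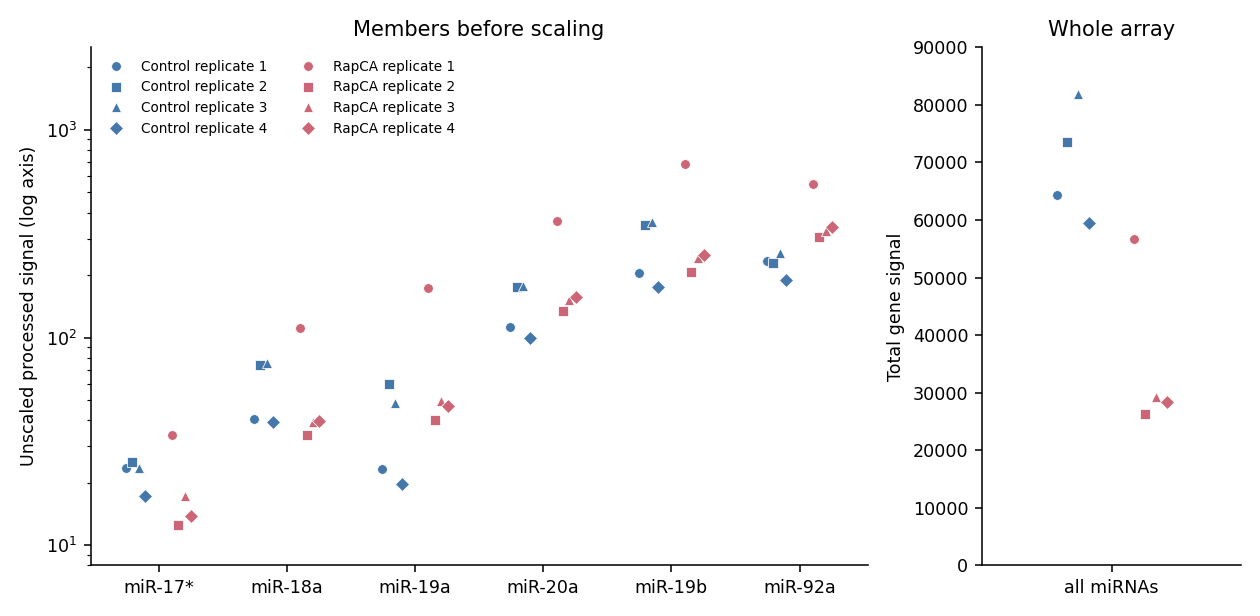
Unscaled processed signal of the 6 tested members (left, log axis) and total signal over all miRNAs (right, linear axis from 0) on each Control (blue) and RapCA (red) array, with marker shapes for replicate numbers. For miR-92a the lowest RapCA array (305) is above the highest Control array (256), while total signal is lower on all 4 RapCA arrays.

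The size of each change therefore depended on the scaling, while the place of the members among all miRNAs depended on it less. A divisor per array shifts the log2 values of all miRNAs alike, apart from the floor. Settings that differ only in that divisor could therefore hardly change this place, and their likeness is no test of it. With no scaling between arrays, the median of all tested miRNAs was at -1.03 and the median of the 6 members at 0.30. In that setting miR-92a was still called raised at 0.71, the differences of miR-19a (0.88), miR-20a (0.42) and miR-19b (0.18) were not called, and those of miR-17* (-0.29) and miR-18a (-0.15) changed sign without being called. Scaling to the spike-ins gave the same calls, with the median of all tested miRNAs at -1.08. Relative to the median of all tested miRNAs, miR-92a lay at least 1.02 higher, miR-19a 0.90, miR-20a 0.81, miR-19b 0.66, miR-18a 0.45 and miR-17* 0.39 in each of the 23 alternative settings that gave a value.

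**Figure D3:**
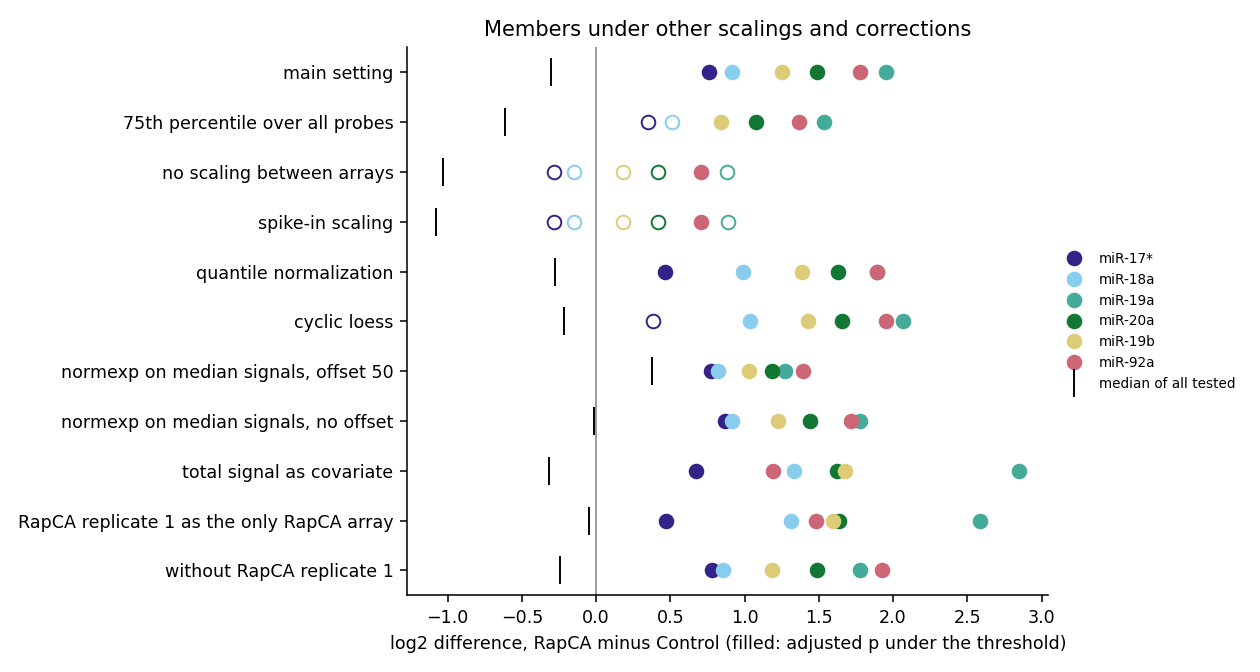
Log2 difference, RapCA minus Control (horizontal axis), of each of the 6 tested members under the main setting and 10 of the alternatives. Filled points passed the limma threshold in that setting, open points did not, and the black tick is the median of all tested miRNAs, which moves from -0.30 to -1.03 without scaling; only miR-92a is filled in every setting shown.

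The order of the arrays within groups was shared by part of the cluster. Among the Control arrays, numbers 2 and 3 were the brightest in total signal, and they were the highest for miR-18a, miR-19a, miR-19b and miR-20a. RapCA array 1, the brightest of its group, was the highest for miR-18a, miR-19a and miR-19b. These mature sequences have a GC content between 34.8% and 43.5%, against 57.1% for miR-92a. It is 39.1% for miR-20a, where RapCA array 4 was the highest of its group, and 54.5% for miR-17*, where RapCA array 3 was. The part of GC content in the order of the arrays was not tested. With the log2 total signal of each array as a covariate, all 6 members were still called raised, miR-19a at 2.85, miR-19b at 1.68, miR-20a at 1.62, miR-18a at 1.33, miR-92a at 1.19 and miR-17* at 0.67. With RapCA array 1 as the only RapCA array, the one of near Control brightness, all 6 were again called raised, by between 0.47 for miR-17* and 2.58 for miR-19a, on the assumption that this lone array varies like the Controls.

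Along the transcript the first hairpins showed the smaller changes in the main setting, but the order was not a simple gradient. From miR-17* to miR-92a the differences ran 0.76, 0.92, 1.96, 1.49, 1.25 and 1.78. With total signal as a covariate, miR-18a changed more than miR-92a. For the first hairpin only the passenger strand was tested, on 1 probe. The sequences of miR-19b and miR-92a are also encoded on the X chromosome, so their values need not stem from this transcript alone. The difference between 2 miRNAs within an array does not depend on the scaling factor where neither is at the floor, and it was compared between groups for 10 pairs of cluster guides and 4 pairs of cluster members with relatives of the same seed. Over these 14 pairs, 7 had values that did not overlap between the groups, each with an exact permutation p of 0.0286, the smallest possible, and an adjusted p of 0.0571, so that 0 of 14 passed 0.05 after adjustment. Without RapCA array 1 the number without overlap was 11. The share without overlap over pairs of all tested miRNAs was not computed. Single miRNAs often separated, with every RapCA array above every Control array for 21.4% and below for 46.4%. The counts of pairs can therefore not be read as particular to the cluster. Inside the cluster, the within-array value moved by -1.04 for miR-18a minus miR-19a, by -0.57 for miR-18a minus miR-20a and by -0.33 for miR-18a minus miR-19b. For the sister sequences, miR-19a minus miR-19b moved by 0.70. The values of miR-19a minus miR-92a, which moved by 0.18 (adjusted p = 0.714, exact permutation test), and of miR-20a minus miR-92a, which moved by -0.29 (adjusted p = 0.2, exact permutation test), overlapped between the groups.

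**Figure D4:**
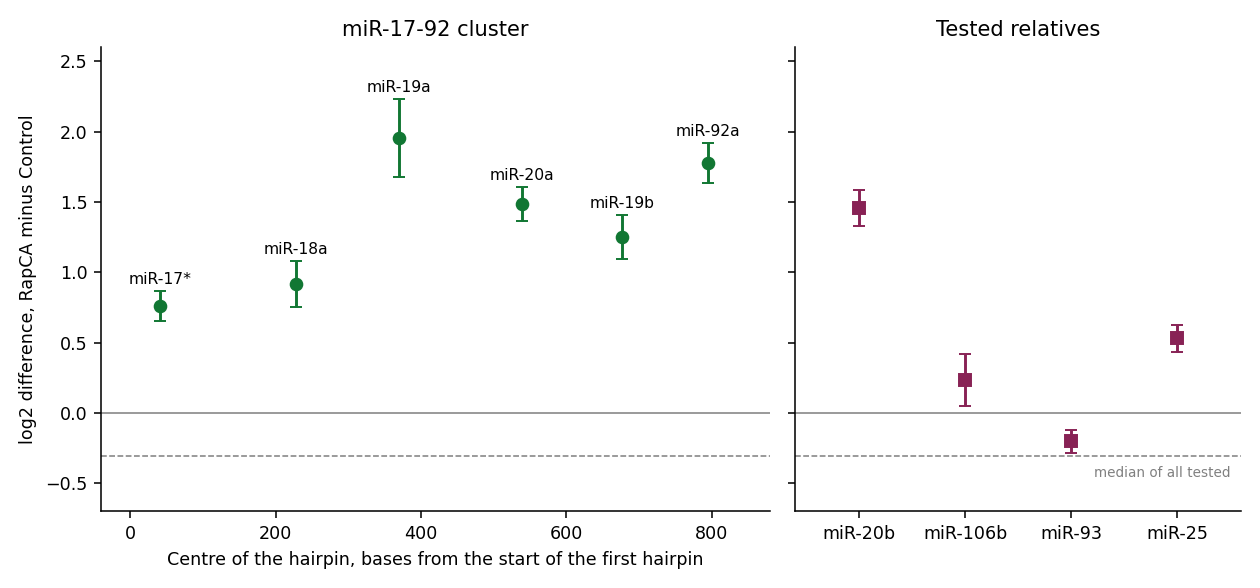
Log2 difference, RapCA minus Control, after scaling (vertical axis), with SE bars from limma. Left, the 6 tested members at the centre of their hairpin on chromosome 14, in bases from the start of the first hairpin. On the right are the 4 tested relatives, and the dashed line is the median of all 168 tested miRNAs, -0.30.

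The related miRNAs did not all follow. The arrays carried 12 forms from the related clusters and other miRNAs with the guides' seeds, passenger strands included, of which 4 were tested. Of these 2 were called raised, 1 lowered and 1 neither. Among all 168 tested miRNAs, 26.2% were called raised and 50% lowered. From the miR-106a-363 cluster, miR-20b was the only form tested. Its scaled log2 values were 4.54, 5.06, 4.79 and 4.49 on the Control arrays and 6.19, 6.17, 6.19 and 6.15 on the RapCA arrays, a rise of 1.46 ± 0.13 (SE) with a limma adjusted p of 5.19e-06. Control arrays 2 and 3 were again the higher ones, and the groups did not overlap. The within-array difference between miR-20a and miR-20b moved by 0.03 (exact permutation p = 0.6). Whether the miR-20b probes also read the brighter miR-20a was not tested.

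The miR-106b-25 cluster, which lies in an intron of Mcm7, a gene of the replicative helicase, gave mixed results. Its member miR-25, with the miR-92a seed, had scaled log2 values of 6.35, 6.24, 6.30 and 6.39 on the Control arrays and 6.64, 6.87, 6.91 and 6.98 on the RapCA arrays. It rose by 0.53 ± 0.10 (SE, limma adjusted p = 0.000686), without overlap between the groups. With total signal as a covariate its difference was 0.25 and was no longer called (limma adjusted p = 0.131), and with the 75th percentile over all probes it was 0.12 (limma adjusted p = 0.349). With the miR-17 seed, miR-106b overlapped between the groups, at 5.39, 6.05, 5.90 and 5.30 against 6.22, 5.71, 5.81 and 5.84, and its difference of 0.24 ± 0.19 (SE) was not called (limma adjusted p = 0.264). With total signal as a covariate it was called raised at 0.86.

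The remaining member, miR-93, also of the miR-17 seed, was lower in RapCA cells, at 5.22, 5.07, 5.10 and 5.10 against 4.87, 5.003, 4.89 and 4.92. The difference of -0.20 ± 0.08 (SE) passed narrowly (limma adjusted p = 0.0416), and the call held in 7 of 23 alternatives. It was lost when any 1 array was left out, and after normexp the sign turned without a call. The lowering was larger with the floor at 1 (-0.39, limma adjusted p = 0.00968), with the 75th percentile over all probes (-0.45, limma adjusted p = 0.0012) and without scaling (-0.83, limma adjusted p = 0.00655). Within arrays, miR-20a gained 1.69 over miR-93 (1.25 without scaling, because the floor also acts on miR-93) and 1.25 over miR-106b, and miR-92a gained 1.25 over miR-25. In all these pairs the groups did not overlap, with the same adjusted p of 0.0571 (exact permutation test). The relatives miR-106b*, miR-93*, miR-18b, miR-20b*, miR-363, miR-92b, miR-32 and miR-367 were not detected on any array, and miR-106a has no probe among these spots.

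**Figure D5:**
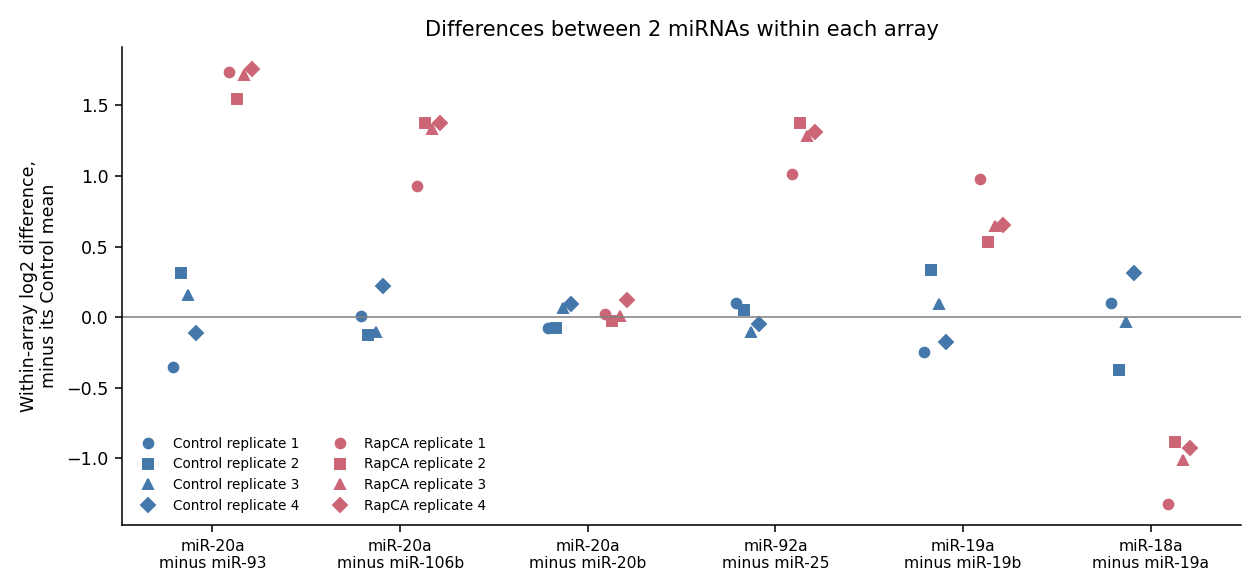
Difference between 2 miRNAs of the same array in scaled log2 signal, after subtraction of the mean over the Control arrays (vertical axis), for 6 of the 14 pairs, with 4 Control (blue) and 4 RapCA (red) arrays per pair. The groups are apart for each pair shown except miR-20a minus miR-20b, whose difference moved by 0.03. Not shown are all pairs of cluster guides whose values overlapped between the groups, and miR-18a minus miR-20a and miR-18a minus miR-19b, which did not overlap.

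By seed family, the share of total signal was higher on all RapCA arrays than on any Control array. The forms with the miR-17 seed together held between 0.554% and 0.780% of the signal on Control arrays and between 1.18% and 1.54% on RapCA arrays. The miR-19 pair held between 0.431% and 0.726% against between 1.24% and 2.01%, and the miR-92 seed forms between 0.711% and 0.823% against between 1.78% and 2.13%. The miR-18 seed forms went from at most 0.0878% to at least 0.113%. These sums include the relatives. The miR-106b-25 guides alone held between 0.594% and 0.668% on Control arrays and between 0.769% and 0.930% on RapCA arrays, also without overlap. How many of all miRNAs separate in share of total signal was not counted, so the separation cannot be read as particular to these families.

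Outside the cluster, the profile over the 8 arrays was most like the cluster's in miR-20b. The sequence of miR-20b differs from that of miR-20a at 2 of 23 positions, and how far the probes separate them was not tested. Likeness was the root mean square difference between a miRNA's log2 values and the mean of the 5 tested guides, each centred on its own mean, and the contrast between the groups makes up much of it. It was 0.06 for miR-20b, against 0.05 for miR-20a and 0.35 for miR-92a, which are themselves part of that mean. The median over the 158 miRNAs outside the cluster and its relatives was 0.94. Of those, the 5 nearest were miR-494 at 0.25, miR-685 at 0.27, miR-29a at 0.27, miR-155 at 0.30 and miR-7a at 0.34. Each of the 5 was itself called raised, which a profile built from raised guides favours.

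The smooth muscle markers moved in the opposite direction to the cluster. The smooth muscle miRNA miR-143 fell by 1.62 ± 0.15 (SE, limma adjusted p = 6.66e-06) on the scaled log2 scale, and its partner miR-145 was detected on 4 Control arrays and 0 RapCA arrays. Their summed unscaled signal ran from 187 to 326 on the Control arrays and from 27.0 to 98.5 on the RapCA arrays. Detection counts and unscaled sums also carry the lower total signal of the RapCA arrays. After scaling, the log2 difference of miR-145 was -0.75 (limma adjusted p = 6.62e-05), with a RapCA mean of 3.27, next to the floor at 3.26. It met the detection rule through the Control arrays only, so this p-value is no independent support for its fall. Of 21 markers of endothelium, blood, striated muscle, epithelium and neurons, 2 were detected on any array. The defining markers miR-126-3p, miR-142-3p, miR-223, miR-451 and the miR-200 family were at background on all arrays. The detected ones were miR-206, at a mean scaled log2 value of 4.25 on Control and 4.31 on RapCA arrays, and miR-128, above background on 3 arrays. The part of the change in smooth muscle miRNAs in the results for the cluster was not tested.

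The authors' deposited table of 54 selected miRNAs lists 4 cluster members and miR-20b, with values of unstated normalization. In the authors' deposited table, miR-92a stood at 235, 206, 193 and 206 in Control and 591, 785, 785 and 830 in RapCA samples. In the authors' deposited table, miR-19a stood at 30, 54, 37 and 28 against 173, 116, 129 and 124. The groups did not overlap for any of the 5 in the authors' deposited table. A selected list is no independent evidence of their direction.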

How the data were processed

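The intensity values were extracted by the authors with Agilent Feature Extraction (version 10.7 per the submitters' processing notes, 10.7.3.1 per the file headers). They are processed spot signals, background-subtracted and not scaled between arrays. The series-wide value table held the same deposited intensity values (largest difference 0). The authors' deposited table of 54 miRNAs holds whole-number scores of unstated normalization. The array design refers to the mouse build mm9 per the file headers. Its coordinates were not used.

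Control spots and spots with an outlier flag (between 2.98% and 4.66% per array) were left out, and 0 spots were saturated. Detection of a probe on an array required more than 0.5 of its kept spots to be well above background. Signals were scaled to percentile 75 over 189 probes, floored at 9.61, and turned to log2. Each miRNA's value is the mean of its probes that met this on every array of either group, which gave 168 tested miRNAs. Tests used limma 3.58.1 in R 4.3.3 on all 8 arrays, with Benjamini-Hochberg adjustment over the 168. The steps were tested on simulated data in which equal numbers of miRNAs were raised and lowered. The scaling was therefore not tested under the unequal numbers called here. Alternatives covered scaling, floor, detection rule, background correction and each array left out. The text names all forms of the cluster, its paralogs and same-seed miRNAs, the 5 others nearest in profile, miR-143, miR-145 and any marker detected. Members, lists and tests were chosen with earlier results of these data known.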

Additional observations from a re-analysis of the deposited data

Results flagged for a closer look

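Of 30 groups of 4 arrays checked, 4 had a sample whose gap to its nearest neighbour took up more of the group's range than Dixon's critical value for 4 samples allows, and chance alone marks about 1 group in 20. In 3 of the 4 the sample was RapCA array 1. It was low for miR-92a, where the gap took 0.849 of the range of the RapCA scaled log2 values, and high for total gene signal (0.906) and for the summed cluster signal (0.896). The fourth was the spike-in signal of the Control group (0.877), where Control array 1 read 1405 and the others between 1180 and 1207. Without RapCA array 1 all 6 tested members were still called raised by limma, with miR-92a at 1.92 and miR-19a at 1.78.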

How the results depend on the processing

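All 6 tested members were called raised in 18 of 23 alternatives, and none was called lowered in any. With only probes detected on all 8 arrays, miR-17* was not tested and the other 5 were raised. Leaving out each array in turn kept 6 raised, with a median between 1.30 and 1.60. With the 75th percentile over all probes, 28 miRNAs were raised in all and the cluster median was 0.96, while miR-17* (0.35) and miR-18a (0.51) were not called, miR-25 lost its call at 0.12 and miR-106b read -0.17. Without scaling between arrays, 10 miRNAs were raised, 1 of them in the cluster, and the cluster median was 0.30. There miR-19a (0.88), miR-20a (0.42) and miR-19b (0.18) were not called, and miR-17* (-0.29), miR-18a (-0.15), miR-106b (-0.83) and miR-25 (-0.54) changed sign. Scaling to the spike-ins gave 9 raised, 1 in the cluster, a cluster median of 0.30, and miR-19a at 0.89, miR-20a at 0.42, miR-19b at 0.18, miR-17* at -0.29, miR-18a at -0.15, miR-106b at -0.83 and miR-25 at -0.54. Cyclic loess left miR-17* uncalled at 0.38. With all probes kept, the cluster median over 11 forms was 0.39, since undetected forms sit at or near the floor. With normexp and an offset of 50, chosen after seeing the data because the planned mean signals could not be used here, 81 miRNAs were raised and 20 lowered, the cluster median was 1.11 and miR-93 read 0.33. Without the offset 54 were lowered and miR-93 read 0.078. Leaving out each array in turn gave between 7 and 11 pairs without overlap, the highest without RapCA array 1. The covariate, the use of RapCA array 1 alone and the pairs of miR-20a with miR-106b and miR-20b were also chosen after seeing the data. Other causes of these shifts were not tested. Whether the replicate numbers pair the samples could not be settled. Deviations of same-numbered arrays correlated at -0.65, -0.60, -0.55 and 0.63. With so few arrays, and RapCA array 1 much brighter than the others of its group, these values cannot decide it. With the replicate number as a block, 41 miRNAs were raised and 77 lowered, all 6 members were still raised, and miR-93 was no longer called (limma adjusted p = 0.14). Dim signal limits miR-17*, and nothing can be said of the 5 undetected forms.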

Other observations

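The 2 probes of the miR-17 guide carried a longer style of probe name than most. Of 166 probes named in that style, 20 were detected on at least 1 array, against 368 of the 1691 probes named in the shorter style. Both probes of miR-17 gave unscaled signals of at most 3.03 on every array, while the dimmest detected probe per array read between 9.10 and 13.7.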
